A study of Saccharomyces cerevisiae with 12 samples.

Results

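The array held 2443 probe sets to which the platform annotation gives no gene name, out of 9335 probe sets in all. They were chosen by the annotation alone, as every probe set without a gene symbol once the 60 array control probe sets had been left out, and no expression value entered that choice. They made up 26.3% of the 9275 probe sets tested, and all 2443 were unlisted in the annotation table rather than listed with an empty symbol. The remainder were 6504 probe sets naming exactly 1 gene and 328 naming several. They are called unnamed probe sets here and are given by the identifiers of the array.

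Cultures of Saccharomyces cerevisiae strain S288C, the laboratory strain of the reference genome, were measured on 12 arrays in 4 groups of 3. Fresh cultures were started at an optical density of 0.1 and had 1 h at 30 °C before an exposure of 5 h, and each group had 1 culture on each of 3 independent days. Controls received the solvent dimethylformamide alone, and the treated groups received 1 compound each in that solvent. The doses were 0.313 ppm for fenpropimorph, 0.625 ppm for tomatidine and 13.9 ppm for tomatine. Doses and groups were taken from the sample titles and the design text, because another label gives 15 uM tomatidine for every sample, controls included. Tomatine is the steroidal glycoalkaloid of tomato and tomatidine is the same alkaloid without its sugar chain, while fenpropimorph is a morpholine fungicide acting on ERG24 and ERG2, enzymes late in ergosterol synthesis. The doses differed, so a difference between compounds is a difference between these treatments. All cultures had the same strain, solvent, temperature and growth time, and the array medians of the deposited intensity lay between 77.3 and 78.9.

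A probe set is a group of short probes whose signals are combined into 1 value for a target chosen when the array was designed. A target can be left without a gene name when an open reading frame is dropped from the gene catalogue, when its probes match many repeated places in the genome such as retrotransposons and subtelomeric families, or when it lies between genes. The target sequences of the unnamed probe sets were not used here, so no member was assigned to any of these kinds. The ending of an identifier tells how the probes were picked: a plain _at ending stands for probes unique to 1 target, _f_at for probes shared by a sequence family, _s_at for probes shared by several transcripts, _g_at for probes shared within a group of similar targets, and _i_at and _r_at for sets with fewer probes or relaxed picking rules.

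The unnamed probe sets were dim. Their median signal, as the mean log2 intensity over the 12 arrays, was 4.07, against 6.86 for probe sets naming 1 gene and 8.41 for those naming several. On the linear scale the medians were 16.7, 116 and 340 intensity units. The middle of the unnamed class ran from 2.87 at the lower quartile to 5.38 at the upper quartile, and single members reached from 1.45 to 13.26. The gap between the unnamed and the 1-gene medians was -2.80 ± 0.08 log2 units (SD, n = 12 arrays) and ranged from -2.91 to -2.63, so it had the same sign on every array and its size exceeded its spread between arrays. Of the unnamed probe sets, 381 (15.6%) lay at or above the median of all tested probe sets, compared with 4030 (62.0%) of those naming 1 gene. Probe sets differ in how well their probes bind, so these signals describe the classes and are no measure of RNA amount between targets.

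**Figure D1:**
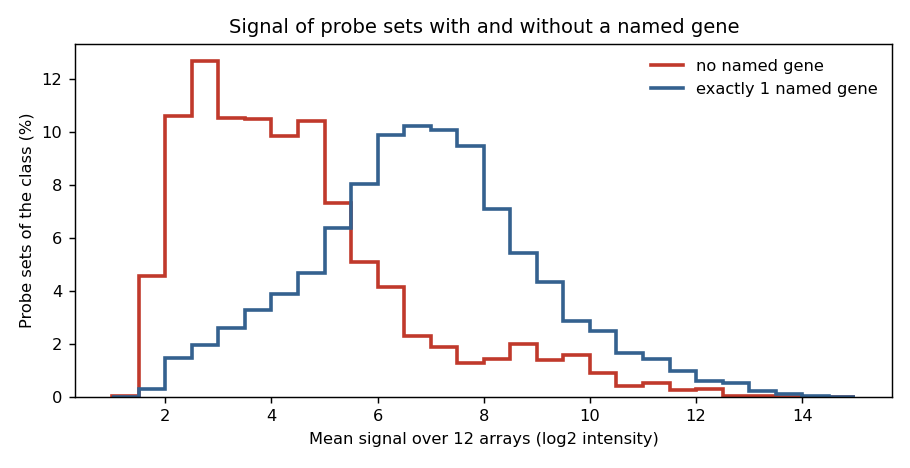
Distribution of the mean signal over 12 arrays (x axis, log2 intensity) as the percent of each class (y axis), for the 2443 unnamed probe sets and the 6504 probe sets naming exactly 1 gene. The unnamed class has its median at 4.07 with a thin tail up to 13.26, and the named class has its median at 6.86.

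The kinds of probe set differed between the classes. Plain _at probe sets made up 1861 (76.2%) of the unnamed class and 87.0% of the 1-gene class, while _f_at probe sets made up 290 (11.9%) and 2.98%. The unnamed _f_at probe sets were the bright part of the class, with a median log2 signal of 6.98, and the 142 _i_at probe sets were the dim part, with a median of 2.57. Plain _at members had a median of 3.97. Among the 198 unnamed probe sets in the brightest of 5 equal bins of signal, 123 (62.1%) were _f_at and 55 (27.8%) were plain _at, whereas 1338 (89.7%) of the 1491 1-gene probe sets in that bin were plain _at. The members with the highest mean signal were 9183_s_at, 3913_s_at, 3915_s_at, 3982_at and 3914_s_at. Of these, 9183_s_at gave 13.26, 13.33 and 13.27 log2 units in the controls and between 13.19 and 13.37 on the treated arrays, and none of its comparisons with control was called.

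Identifier numbers ran from 2100 to 11436 and followed gene order in much of the range. Of 4979 pairs of consecutive numbers that name different single genes, 4124 (82.8%) were neighbours with no gene between them in the R64 gene table of RefSeq, and 4915 (98.7%) lay on 1 chromosome. The order held for 4115 (84.2%) of 4885 pairs numbered 4000 and above and for 9 (9.57%) of 94 pairs below 4000. Unnamed probe sets made up 936 (50.9%) of the probe sets numbered below 4000 and 1507 (20.3%) of those above, with median signals of 3.53 and 4.35. The dividing number was chosen after the identifiers and values had been seen.

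The number order gave 422 unnamed probe sets numbered 4000 and above whose direct neighbours on both sides each name 1 gene. In 252 (59.7%) of these the flanking genes had no R64 gene between them, in 89 (21.1%) there was 1 gene between them, and in 78 (18.5%) there were 2 or more. A named probe set numbered in gene order has its own gene between its flanks by construction, so the classes were not compared on this count. The unnamed probe sets with no gene between their flanks had a median signal of 4.38 log2 units, and 5 of the 252 lay at or above the median of all tested probe sets. Those with 1 gene between their flanks had a similar median of 4.41, but 17 of the 89 lay at or above that line. The named probe sets with 1 gene between flanks had a median of 7.08. This grouping rests on numbers and gene order, gives no member a gene, and was made after values had been seen.

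**Figure D2:**
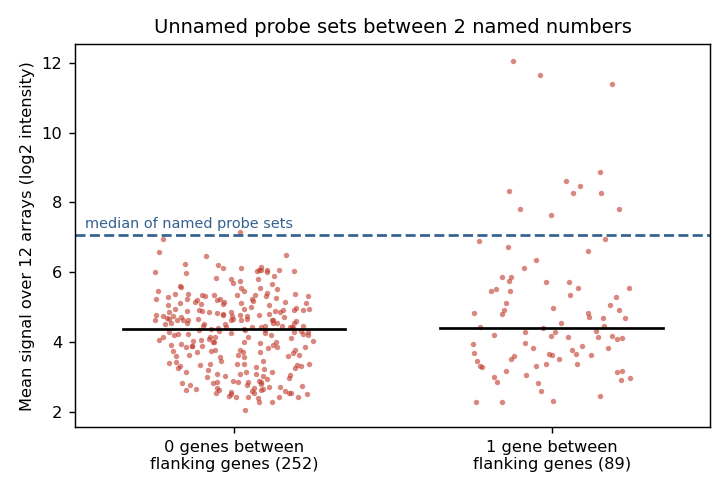
Mean signal over 12 arrays (y axis, log2 intensity) of each unnamed probe set whose number neighbours both name 1 gene, split by whether 0 genes (252 points) or 1 gene (89 points) lies between those neighbours in R64. Points are probe sets spread sideways for visibility, black lines are medians of 4.38 and 4.41, and the dashed line marks the median of 7.08 of named probe sets with 1 gene between flanks.

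Replicates of the unnamed probe sets also scattered more. The median within-group SD was 0.16 log2 units for the unnamed class and 0.10 for the 1-gene class. The gap remained at like signal, with a median SD of 0.17 against 0.16 in the dimmest of the 5 bins, 0.14 against 0.10 in the middle bin and 0.12 against 0.08 in the brightest bin.

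Each compound was then compared with the solvent control to ask which unnamed probe sets responded. One limma model was fitted to all 9275 probe sets and a difference was called at a Benjamini-Hochberg adjusted p under 0.05 over all of them. Fenpropimorph gave the most calls, and in every comparison with control the unnamed class was called less often than the 1-gene class. The comparisons share the 3 control arrays, so their values and calls are given side by side and the overlap of their calls was not tested.

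With tomatidine, 38 unnamed probe sets (1.56%) were called beside a background of 4.44% of all tested probe sets, and 344 (5.29%) of the 1-gene class were called. The 38 divided into 19 higher (background 2.53%) and 19 lower (background 1.91%), and the median log2 fold change over all 2443 was -0.05, against -0.02 over all tested. With tomatine, 21 (0.86%) were called beside a background of 4.36%, and 375 (5.77%) of the 1-gene class. Of the 21, 8 were higher (background 2.59%) and 13 were lower (background 1.77%), a split that became 14 and 12 when arrays were centred on their medians and 13 and 12 after quantile normalization. With fenpropimorph, 307 (12.6%) were called beside a background of 30.3%, and 2417 (37.2%) of the 1-gene class. Here 90 were higher (background 13.4%) and 217 lower (background 16.9%), so that 70.7% of the called unnamed probe sets were lower, against 54.9% in the 1-gene class. The size of this surplus depended on processing and on single arrays. The split was 96 higher and 180 lower with median centring and 100 and 188 after quantile normalization. It was 82 and 140 without control 2 and 74 and 209 without control 1. The split of the 1-gene class was not counted in these settings. The median log2 signal of the unnamed class was highest on control 2 (4.21) and lowest on fenpropimorph 3 (3.94). The part of these medians in the surplus was not tested. The median log2 fold change over the 2443 was -0.09, against -0.07 over all tested probe sets. Of the 60 array control probe sets, tested in a separate fit that included them, 9 were called with fenpropimorph and all 9 were lower. Their part in the surplus of lower calls was not tested.

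The number of calls depended on single arrays, in the unnamed class and over all tested probe sets. The 38 calls with tomatidine became 24 without control 2, 24 without control 3, 23 without tomatidine 1 and 17 without tomatidine 2. Over all tested probe sets, the 412 calls with tomatidine became 273, 305, 260 and 221 in the same order. The 21 calls with tomatine became 4 without control 1, control 2 or tomatine 3. They became 11 without control 3, 8 without tomatine 1 and 12 without tomatine 2. Over all tested probe sets, the 404 calls with tomatine became 83, 99, 100, 276, 217 and 183 in the same order. The 307 calls with fenpropimorph became 195 without fenpropimorph 2 and lay between 219 and 318 without any other single array. Over all tested probe sets, the 2808 calls became 2135 without fenpropimorph 2 and lay between 2214 and 2838 without any other. A difference among the 4 groups of any kind, by the moderated F statistic, was called for 351 unnamed probe sets (14.4%) beside a background of 37.2%.

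With fenpropimorph and tomatine the unnamed class had the lower share of calls in each of 5 bins of signal, and with tomatidine in 4 of them. The percent called was compared within equal bins of mean signal, since the dimmest probe sets of both classes had the lowest share of calls with fenpropimorph. With fenpropimorph, 6.02% of the 1197 unnamed probe sets in the dimmest bin were called, against 13.5% of the 624 named ones. In the second bin the shares were 12.2% of 707 and 28.1% of 1101, in the middle bin 26.0% of 231 and 36.9% of 1584, in the fourth 40.0% of 110 and 44.2% of 1704, and in the brightest 22.7% of 198 and 46.0% of 1491. With tomatidine the order was turned in the middle bin, where 14 of 231 unnamed probe sets (6.06%) and 69 of 1584 named ones (4.36%) were called. Its other shares, from the dimmest bin on, were 0.668% against 1.44%, 0.849% against 2.09%, 5.45% against 5.87% and 2.02% against 9.59%. With tomatine the unnamed shares ran from 0.418% to 2.6% and the named ones from 0.962% to 9.19%. With 10 bins, added after seeing the data, the unnamed share stayed lower in every bin with fenpropimorph only. The order was turned in bin 2 with tomatine (0.578% against 0.26%). With tomatidine it was turned in bins 5, 6 and 8 (6.33% against 3.2%, 5.48% against 5.4% and 10.4% against 7.22%). Weighting the 1-gene class to the signal bins of the unnamed class gave a rate of 23.9% with fenpropimorph, against the 12.6% measured. The same weighting gave 2.76% with tomatidine against 1.56%, and 2.76% with tomatine against 0.86%. Probe sets are not replicates, so these shares carry no test.

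Within the brightest bin the share called differed between kinds of probe set. Of the 123 unnamed _f_at probe sets in the brightest bin, 8 were called with fenpropimorph, and of the 55 plain _at ones, 29 (52.7%) were called. In the 1-gene class of that bin, 19 of 64 _f_at and 641 of 1338 plain _at probe sets (47.9%) were called. Within that bin _f_at probe sets thus had the lower share in both classes, and unnamed _f_at ones a lower share than named ones. Over all signals with fenpropimorph the order was turned, with 43.8% of 1-gene _f_at probe sets called against 38.6% of plain _at ones. In the unnamed class 39 of 290 _f_at probe sets (13.4%) were called, against 224 of 1861 plain _at ones. In the fourth bin, 30 of 69 unnamed plain _at probe sets (43.5%) were called, against 44.5% of named plain _at ones. Restricting both classes to plain _at probe sets left the overall gap, with 224 of 1861 called with fenpropimorph against a rate of 24.2% after weighting, and the dim bins held most of the unnamed plain _at probe sets. By number, 10 of the 131 bright members below 4000 were called and 35 of the 67 at 4000 and above, and in the 1-gene class 15 of 59 and 671 of 1432. The restriction to plain _at was added after the data had been seen.

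**Figure D3:**
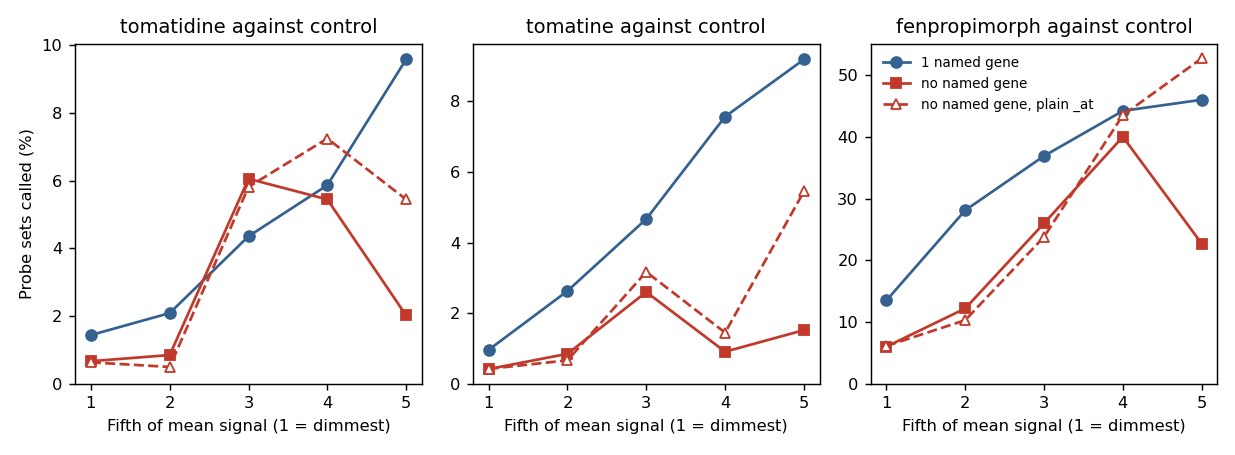
Percent of probe sets called against control (y axis) in 5 equal bins of mean signal from dimmest to brightest (x axis), for each compound, with the unnamed class as filled squares, unnamed plain _at probe sets as open triangles and the 1-gene class as circles. With fenpropimorph the unnamed class drops to 22.7% in the brightest bin while its plain _at members reach 52.7% and the 1-gene class 46.0%.

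Calls were also counted by position in the number order. With fenpropimorph, 18 (7.14%) of the 252 unnamed probe sets with no gene between their flanks were called, and 12 (13.5%) of the 89 with 1 gene. Among named probe sets with 1 gene between flanks, 38.5% were called. These shares were not compared at like signal: the median signals were 4.38, 4.41 and 7.08 log2 units. The part of signal or position in the shares was not tested. Across probe sets, the log2 fold change of a member and the mean of its 2 flanks had a Pearson r of 0.15 over the 252 and 0.36 over the 89 with fenpropimorph. The corresponding values were 0.21 and 0.11 with tomatidine and 0.19 and 0.23 with tomatine. Members and flanks were measured on the same arrays and share their noise, so these correlations are descriptions.

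Tomatidine raised 1 unnamed probe set by at least 2-fold and lowered 2, where 0.571% of all tested probe sets were called at that size. The raised one was 10902_at, with control signals of 7.61, 7.20 and 7.44 log2 units on days 1 to 3, tomatidine signals of 9.19, 8.82 and 9.13, tomatine signals of 7.36, 7.06 and 7.24 and fenpropimorph signals of 7.76, 7.44 and 7.59. The 3 tomatidine arrays lay above all 9 others. The rise was 3.1-fold (log2 fold change 1.63 ± 0.13 SE, limma with Benjamini-Hochberg, adjusted p = 3.05e-05). Tomatine (-0.20, 95% interval -0.49 to 0.09) and fenpropimorph (0.18, -0.11 to 0.47) gave no called difference from control, and tomatidine was higher than fenpropimorph by 1.45 log2 units (limma, adjusted p = 7.98e-06). The named probe sets nearest in profile over the 12 arrays were those of ARO5 (root mean square difference 0.14 log2 units) and PHO5 (0.20), the latter a secreted acid phosphatase induced by phosphate starvation. Their tomatidine differences were 1.56 and 1.28. Here and below, nearest profiles were picked on these same array values, so their like differences follow from the choice. They give no evidence of a shared target or shared control. Its number neighbours name ABM1 and YMR1, a phosphoinositide phosphatase, with tomatidine differences of -0.02 and 0.13, neither called.

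The next 4 by size were _f_at probe sets. 8797_f_at, 4692_f_at, 8752_f_at and 7513_f_at rose by 0.92, 0.90, 0.87 and 0.84 log2 units with tomatidine (limma, adjusted p = 0.000491, 0.000249, 0.0162 and 0.00941). They also rose by 0.96, 0.96, 0.87 and 0.97 with fenpropimorph. Probes of this kind are shared within sequence families, so these 4 may not be separate measurements. For 8797_f_at the controls were at 4.79, 4.97 and 4.72, tomatidine at 5.70, 5.83 and 5.71, tomatine at 5.29, 5.19 and 5.45 and fenpropimorph at 5.59, 6.01 and 5.77. The tomatine arrays lay between the controls and both other treated groups without overlap. The call of 8752_f_at ended without control 1, control 3 or tomatidine 2 (adjusted p = 0.0659, 0.0615 and 0.0755), and that of 7513_f_at without tomatidine 2 (0.0501).

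11226_at moved in opposite directions with 2 compounds. Its controls were at 8.33, 8.13 and 8.22, tomatidine at 9.01, 8.76 and 8.72, tomatine at 8.46, 8.32 and 8.28 and fenpropimorph at 7.75, 7.36 and 7.70. All tomatidine arrays lay above every other array and all fenpropimorph arrays below every other. It rose by 0.60 ± 0.11 log2 units with tomatidine (limma, adjusted p = 0.00913) and fell by 0.63 with fenpropimorph (adjusted p = 0.00117), and the difference between these treatments was 1.23 (adjusted p = 7.7e-06).

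5850_at was lower with every compound and had the largest called fall of the class with each. Its controls were at 6.20, 6.28 and 6.49, tomatidine at 5.55, 4.22 and 4.75, tomatine at 4.36, 4.12 and 4.13 and fenpropimorph at 4.04, 3.77 and 3.57. The controls lay above all 9 treated arrays, and the fenpropimorph arrays lay below all others. The falls were 2.8-fold with tomatidine (limma, adjusted p = 0.0058), 4.35-fold with tomatine (0.00436) and 5.77-fold with fenpropimorph (1.39e-05), and each call was kept without any 1 array. Tomatidine and fenpropimorph differed by 1.04 log2 units (limma, adjusted p = 0.00834), while tomatine minus tomatidine was -0.64 (95% interval -1.19 to -0.08, adjusted p = 0.191) and tomatine minus fenpropimorph was 0.41 (-0.15 to 0.97, adjusted p = 0.245). The nearest named profiles were those of OPT2, an oligopeptide transporter, and HXT4, a hexose transporter, at root mean square differences of 0.49 and 0.57, which are loose matches.

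Several members fell with tomatidine and fenpropimorph and stayed near control with tomatine. For 3259_at the controls were at 6.81, 6.45 and 6.97, tomatidine at 5.78, 5.74 and 5.61, tomatine at 6.51, 6.62 and 6.59 and fenpropimorph at 5.54, 5.48 and 5.28. The tomatine arrays lay inside the range of the controls and both other treated groups lay below it. The falls were 2.05-fold (limma, adjusted p = 0.00031) and 2.48-fold (5.22e-06), and tomatine was 0.87 log2 units above tomatidine (adjusted p = 0.00119). Its nearest named profiles were those of FUS3, the mitogen-activated protein kinase of the mating response (0.23), and TEC1, a transcription factor of filamentous growth (0.23).

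The bright family probe set 3316_f_at had the same order. Its controls were at 10.49, 10.37 and 10.73, tomatidine at 9.66, 9.70 and 9.67, tomatine at 10.37, 10.46 and 10.62 and fenpropimorph at 9.06, 9.07 and 9.04. It fell by 0.86 log2 units with tomatidine (limma, adjusted p = 0.000191) and 2.78-fold with fenpropimorph (1.95e-07), and the fenpropimorph arrays lay below the tomatidine arrays by 0.62 (0.000287). AGA1, which anchors a-agglutinin to the cell wall in mating, was nearest in profile (0.13) and ZRT1, the high-affinity zinc transporter, followed (0.17). The AGA1 probe set differed from control by -0.65 with tomatidine, 0.06 with tomatine and -1.44 with fenpropimorph. 3195_f_at fell by 0.72 with tomatidine and by 0.75 with fenpropimorph (limma, adjusted p = 0.000239 and 2.08e-05).

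2433_at and 9281_at followed with smaller falls. For 2433_at the controls were at 6.40, 6.37 and 6.35, tomatidine at 5.93, 5.70 and 5.66, tomatine at 6.68, 6.67 and 6.51 and fenpropimorph at 5.96, 5.82 and 5.83. It fell by 0.61 with tomatidine (limma, adjusted p = 0.0011) and by 0.50 with fenpropimorph (0.000666). The probe set numbered just before it names KCC4, a bud-neck kinase, and differed from control by -0.62 and -0.60. 9281_at fell by 0.64 with tomatidine (0.00491) and by 0.85 with fenpropimorph, while the probe set numbered just after it, which names the open reading frame YMR317W, rose by 2.55 and 4.58 log2 units. 2433_at thus moved with its number neighbour and 9281_at moved apart from it. Below 4000, where 2433_at is numbered, 9 (9.57%) of 94 pairs were neighbours in gene order. Its number therefore says little about its position, and these single members describe no general pattern.

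**Figure D4:**
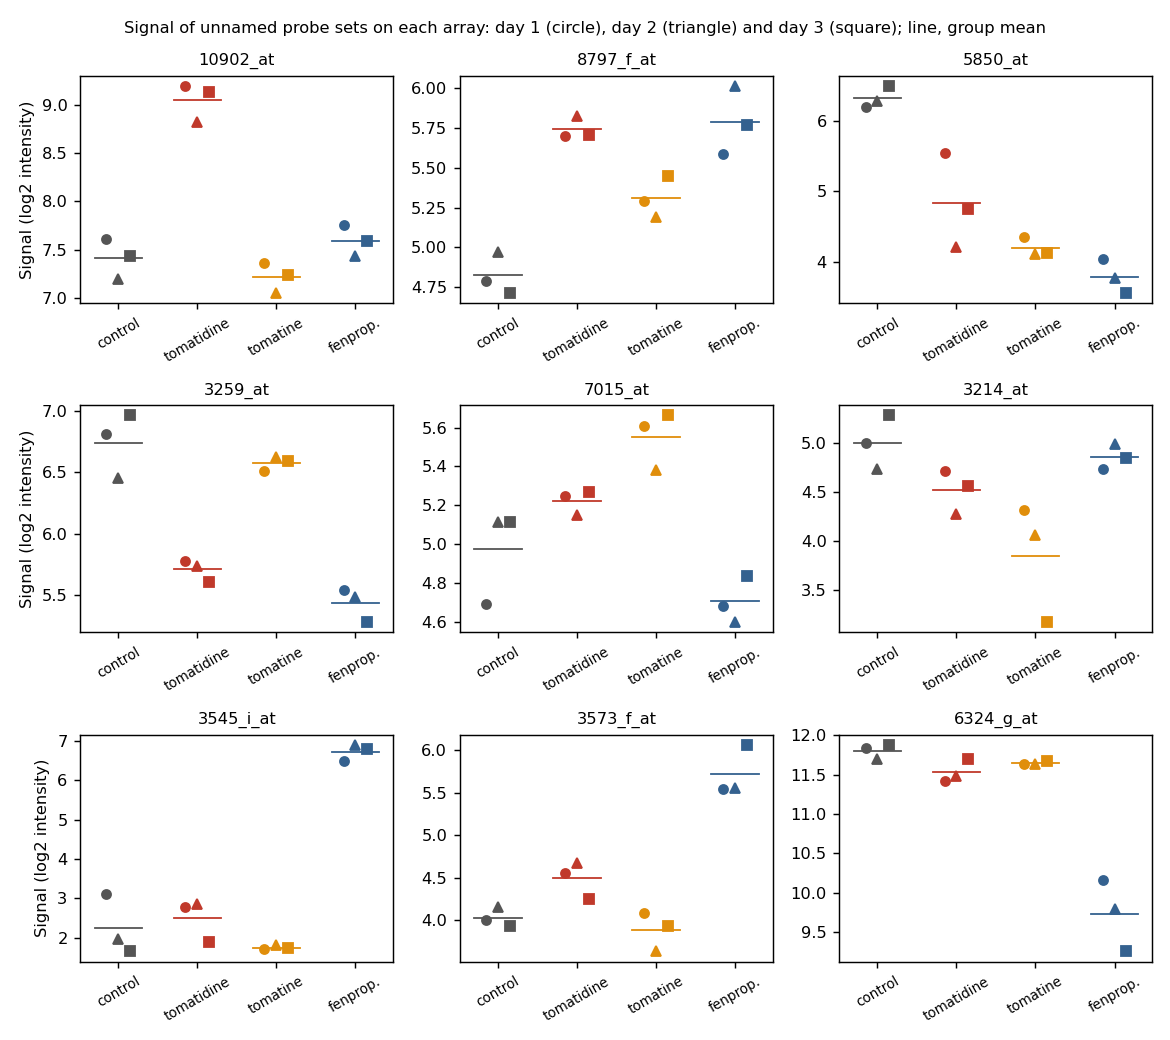
Signal (y axis, log2 intensity, a separate scale for each panel) of the first 2 listed unnamed probe sets in each direction for each compound (9 in all) on each of the 12 arrays by group (x axis, where fenprop. is fenpropimorph), with symbols for the day of culture and a line at each group mean. 10902_at is high on the 3 tomatidine arrays, 3545_i_at and 3573_f_at are high and 6324_g_at is low with fenpropimorph, and 5850_at is lower on all 9 treated arrays.

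Fenpropimorph raised 10 unnamed probe sets by at least 2-fold and lowered 9, beside a background of 3.61% of all tested probe sets. The largest called rise was that of 3545_i_at, with controls at 3.12, 1.95 and 1.65, tomatidine at 2.77, 2.85 and 1.90, tomatine at 1.70, 1.80 and 1.74 and fenpropimorph at 6.49, 6.90 and 6.79. The probe set was near the bottom of the scale on every array but those 3, where its signal was higher than in control by a fitted 4.49 ± 0.33 log2 units (SE, limma, adjusted p = 9.51e-07). No detection calls were used here, so it is not known whether this probe set was above background on the other arrays, and the fitted difference is no ratio of RNA amounts. Neither tomatidine (0.27, 95% interval -0.45 to 0.99) nor tomatine (-0.49, -1.21 to 0.23) was called. RTA1, a membrane protein linked to aminocholesterol resistance, and MNC1 had the nearest named profiles (0.48 and 0.50), with fenpropimorph differences of 4.35 and 3.90. The next number, 3546_f_at, rose with fenpropimorph from equally low control signals of 2.45, 2.11 and 2.39 to 3.55, 4.23 and 3.54 (adjusted p = 9.24e-05).

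The other rises had smaller sizes. 3573_f_at rose 3.23-fold and 3617_f_at 2.86-fold (limma, adjusted p = 7.95e-06 and 4.37e-06), and both had the seripauperin gene PAU23 as nearest named profile (0.13 and 0.13), whose own fenpropimorph difference was 1.67 log2 units. The consecutive numbers 5877_i_at and 5878_r_at rose 2.72-fold and 2.17-fold (9.33e-08 and 3.03e-07). For 5877_i_at the controls were at 6.10, 6.31 and 6.25, tomatidine at 6.19, 6.31 and 6.19, tomatine at 6.24, 6.09 and 6.08 and fenpropimorph at 7.64, 7.77 and 7.57, so the fenpropimorph arrays stood alone. 7164_at rose 2.62-fold (2.84e-05), from 6.35 to 7.07 in the controls to 7.94 to 8.30 with fenpropimorph, and 3328_at and 2546_at rose (adjusted p = 0.000115 and 0.000166). Both had low control signals, between 1.85 and 2.80, so the limit given for 3545_i_at holds for the size of their rises too.

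8131_at rose with fenpropimorph and, less, with tomatidine. Its controls were at 5.42, 5.74 and 5.37, tomatidine at 5.97, 6.08 and 6.04, tomatine at 5.37, 5.52 and 5.69 and fenpropimorph at 6.87, 6.80 and 6.82. The tomatidine arrays lay above all control and tomatine arrays and below all fenpropimorph arrays. The rise was 2.49-fold with fenpropimorph (limma, adjusted p = 1.5e-06) and 0.52 log2 units with tomatidine (adjusted p = 0.013), and the tomatidine call ended without control 1, control 3 or tomatidine 2 (0.0611, 0.0536 and 0.0636). The nearest named profiles were MET16, the sulphate assimilation enzyme that reduces activated sulphate, and ERG27, the 3-keto sterol reductase of ergosterol synthesis. The MET16 probe set differed from control by 0.58, 0.04 and 1.17 with tomatidine, tomatine and fenpropimorph, and the ERG27 probe set by 0.59, 0.01 and 1.21. This likeness to 8131_at follows from picking the nearest profiles on the same arrays.

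The consecutive numbers 6323_at and 6324_g_at were the brightest of the members listed for a fall with fenpropimorph. For 6323_at the controls were at 11.39, 11.36 and 11.46, tomatidine at 11.11, 11.16 and 11.39, tomatine at 11.22, 11.18 and 11.18 and fenpropimorph at 9.94, 9.47 and 9.28. All 3 fenpropimorph arrays lay well below the other 9. The falls were 3.57-fold for 6323_at and 4.2-fold for 6324_g_at (limma, adjusted p = 1.02e-06 and 2.73e-06). Their outer number neighbours name NGG1, a transcriptional coactivator subunit, and YCF1, a vacuolar glutathione-conjugate transporter, with differences of 0.07 and 0.12, neither called. The named profiles nearest to 6323_at were PDR12, a plasma membrane exporter of weak acids (0.20), and ELO1, a fatty acid elongase (0.22).

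Another 4 members fell by less, and by amounts close to each other. 4696_at fell 2.25-fold, and 8094_f_at, 8048_at and 5109_at each fell 2.01-fold (limma, adjusted p = 4.81e-06, 7.95e-06, 4.52e-07 and 4.69e-06). The first 3 had STE3, the receptor for a-factor in cells of mating type alpha, as nearest named profile (0.07, 0.09 and 0.10), with a fenpropimorph difference of -1.07. 5109_at is numbered between the probe sets of MF(ALPHA)2, an alpha-factor gene that differed by -2.09, and MMS2, a ubiquitin-conjugating enzyme variant at 0.14. All 20 unnamed probe sets listed by the naming rule for fenpropimorph against control kept their calls without any 1 array.

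Tomatine gave few calls and small ones. Apart from 5850_at, the only called fall of at least 2-fold was that of 3214_at, with controls at 5.00, 4.74 and 5.28, tomatidine at 4.71, 4.27 and 4.57, tomatine at 4.31, 4.06 and 3.17 and fenpropimorph at 4.74, 5.00 and 4.84. The tomatine arrays lay below the controls but overlapped the tomatidine arrays, and 1 tomatine array was far below the other two. The fall was 2.23-fold (limma, adjusted p = 0.0254), and the call ended without control 1, control 2 or control 3 (0.0764, 0.0513 and 0.0711). GPH1, glycogen phosphorylase, had the nearest named profile (0.28). The largest called rise was 0.58 log2 units, for 7015_at (adjusted p = 0.0228), from 4.69, 5.11 and 5.11 to 5.61, 5.38 and 5.66, and no called unnamed probe set rose 2-fold with tomatine. Calls of at least 2-fold in either direction made up 0.14% of all tested probe sets with tomatine, 4 higher and 9 lower. 9209_at fell by 0.55 with tomatine (0.0192) and by 0.58 with tomatidine (0.0101). Its tomatine call ended without control 1, control 2, tomatine 2 or tomatine 3 (0.0724, 0.0634, 0.0524 and 0.0808), and that of 7015_at without control 1, tomatine 1 or tomatine 3 (0.0633, 0.0674 and 0.0883). Of the 18 members listed for tomatine, 5850_at alone kept its call without any 1 array, against 12 of 20 for tomatidine.

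The treatments were also compared with each other. Tomatine against tomatidine gave 50 called unnamed probe sets (2.05%) beside a background of 5.09%, with 28 higher (background 2.2%) and 22 lower (background 2.89%) with tomatine. The 50 became 22 without tomatidine 1, 27 without tomatidine 2 and 26 without tomatine 1 or tomatine 2. Over all tested probe sets, the 472 calls became 261, 327, 310 and 303 in the same order. The difference was largest for 10902_at, which was lower with tomatine by 1.83 log2 units (limma, adjusted p = 1.18e-05), and among the higher ones 2433_at (0.86, 9.4e-05) and 3316_f_at (0.81, 0.00028) had the smallest adjusted p of those listed. 5537_at, at 7.16, 7.03 and 7.08 with tomatidine and 6.36, 6.29 and 6.35 with tomatine, was lower with tomatine by 0.76 (0.00109). Its fenpropimorph arrays, at 7.38, 7.11 and 6.94, overlapped the tomatidine arrays.

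Tomatidine against fenpropimorph gave 240 calls (9.82%) beside a background of 30.5%, with 154 higher (background 17.0%) and 86 lower (background 13.5%) with tomatidine. Tomatine against fenpropimorph gave 381 calls (15.6%) beside a background of 38.3%, with 255 higher (background 22.5%) and 126 lower (background 15.9%) with tomatine. 10865_at separated all 4 groups, with controls at 5.94, 5.75 and 6.00, tomatidine at 5.66, 5.42 and 5.69, tomatine at 6.38, 6.24 and 6.36 and fenpropimorph at 5.12, 5.37 and 5.09. No array of one group overlapped another group, and tomatine exceeded fenpropimorph by 1.13 log2 units (limma, adjusted p = 3.66e-06). The tomatine call of 10865_at against control ended in 6 of the 12 fits without 1 array (limma, highest adjusted p = 0.128). 5642_at was higher with tomatidine, at 9.58, 9.25 and 9.70, than with fenpropimorph, at 8.22, 7.78 and 8.13, by 1.47 (adjusted p = 0.000239). Its controls, at 9.33, 8.43 and 9.23, overlapped the tomatidine arrays.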

How the data were processed

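Total RNA from 12 yeast cultures was labelled and hybridised to Affymetrix arrays, and the authors deposited 1 intensity per probe set and array, made with RMA per the submitters' processing notes; its version and settings are not given in the sources used here. The deposited intensity values were linear (1.84 to 21252), so log2 was taken, although log2 values had been planned for. A probe set was unnamed when the platform annotation table held no symbol for it, and all 6504 probe sets naming 1 gene were matched to the RefSeq table of assembly R64. The 60 control probe sets were left out of the tests.

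One model with the 4 groups was fitted to 9275 probe sets and 12 arrays in limma 3.58.1 (R 4.3.3; prior degrees of freedom 3.65, residual 8). Tests were two-sided with Benjamini-Hochberg adjustment over all probe sets, called under 0.05. Intervals are 95% and unadjusted. Tables and figures were made with Python 3.11.15, pandas 2.3.3 and matplotlib 3.10.9. The number of arrays limits the precision.

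Named members were, for each compound against control, the 10 highest and 10 lowest called log2 fold changes that moved the same way on all 3 days, 5 and 5 for each pair of compounds, and the 5 brightest; members at 2-fold against control were given the 2 nearest 1-gene profiles, by root mean square difference of centred log2 values. The members and rules were chosen with earlier results of these data known. Replicate numbers pair samples through the day in the labels; residuals of same-day arrays had a mean correlation of 0.04 (18 pairs, -0.20 to 0.24). Replicates were cultures of separate days.

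On simulated data with 200 changed probe sets per comparison among 9275, the fit recovered all 4-fold changes and 92.4% (tomatidine), 100% (tomatine) and 96.8% (fenpropimorph) of 2-fold changes, with 11 of 193, 10 of 187 and 8 of 195 calls false. Of 1.5-fold changes it recovered 81% (tomatidine), 65% (tomatine) and 85.7% (fenpropimorph). These rates are over all classes together, not the unnamed class alone. The simulated noise was independent between values, so errors shared over an array were not covered. With fenpropimorph 2808 probe sets were called in the data, far more than the 200 changed in the simulation. Alternatives were the day as a block, other normalizations, 16 added before log2, a filter on dim probe sets, another prior, only the compared groups, only plain _at probe sets, other numbers of bins and each array left out.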

Additional observations from a re-analysis of the deposited data

Results flagged for a closer look

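The 60 array control probe sets enter no comparison of the report. They were tested in a separate limma fit over all 9335 probe sets, with Benjamini-Hochberg adjustment. With fenpropimorph 9 of the 60 were called, all lower, and with tomatidine 2 were called, 1 higher and 1 lower, while with tomatine 0 were called.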

How the results depend on the processing

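No log2 fold change of a named member reversed under any alternative. Apart from the brightest ones, these members were picked on the same arrays for large called changes without a change of sign between days. The lack of reversals therefore follows largely from that choice and is no independent test. Of the values compared with the threshold, 1490 kept their side and 184 did not. With the day as a replicate block, the unnamed probe sets called numbered 32 (tomatidine), 26 (tomatine) and 309 (fenpropimorph) against control, 47 for tomatine against tomatidine, 232 and 386 for tomatidine and tomatine against fenpropimorph and 345 for any difference; among named members the block ended the calls of 8096_at with tomatidine (adjusted p = 0.053), of 10865_at, 2192_at, 9241_at and 10151_at with tomatine (0.0501, 0.059, 0.0695 and 0.0601) and of 8752_f_at between tomatine and tomatidine (0.0643), and it changed no other call. Over all 9275 probe sets, the block gave 372, 411, 2762, 463, 2758, 3551 and 3352 calls in the same order of comparisons. Testing only the 381 members at or above the median signal gave 18 calls with tomatidine and 137 with fenpropimorph. It gave 106 and 172 for tomatidine and tomatine against fenpropimorph, and 175 for any difference. Fewer members were tested there. Over all 4638 probe sets kept by that filter, calls numbered 462, 2253, 2309, 2752 and 2843 in the same order. Fitting only the compared groups, with fewer arrays, gave 22 calls with tomatidine, 2 with tomatine and 20 for tomatine against tomatidine. Those fits called 252, 121 and 261 of all 9275 probe sets. Testing only plain _at probe sets gave 32 calls with tomatine and 23 for tomatine against tomatidine, beside 526 and 399 of all 7545 plain _at probe sets. The cause of the changed counts was not tested. Leaving out 1 array gave 17 to 40 calls with tomatidine, 4 to 23 with tomatine, 195 to 318 with fenpropimorph, 22 to 59 for tomatine against tomatidine, 172 to 238 and 309 to 423 for tomatidine and tomatine against fenpropimorph, and 245 to 372 for any difference. Over all tested probe sets, these ranges were 221 to 402, 83 to 397 and 2135 to 2838 for the compounds against control. Between compounds they were 261 to 484, 2164 to 2821 and 2952 to 3558, and for any difference 2643 to 3383. The signal gap of -2.80 log2 units became -2.02 with 16 added before log2, -2.99 among plain _at probe sets, and -2.82 to -2.79 without 1 array. With 10 signal bins, added after seeing the data, the weighted 1-gene rate with fenpropimorph was 22.5%. At an unadjusted p under 0.05 there were 247, 238 and 517 of the 2443 members with tomatidine, tomatine and fenpropimorph, beside 1559, 1701 and 3712 of all 9275 probe sets. Most members were dim, and no detection calls were used, so how many lay above background is not known.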
